A study of Rattus norvegicus with 3 samples.

Results

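Tight junctions seal the space between neighbouring cells. Claudins are the membrane proteins that form their strands and set which ions pass, occludin and the junctional adhesion molecule JAM-A (gene F11r) lie beside them in the membrane, and the zonula occludens proteins (Tjp1 for ZO-1, Tjp3 for ZO-3) are scaffolds that tie them to actin. In the cochlea such seals keep the potassium-rich endolymph apart from perilymph, close the capillaries of the blood-labyrinth barrier, and insulate myelin, where claudin-11 is known from oligodendrocytes and claudin-19 from Schwann cells. The 9 genes described here are Cldn5, Cldn9, Cldn11, Cldn12, Cldn19, Ocln, F11r, Tjp1 and Tjp3. They were chosen by name, all 9 are listed in each library, and they are 9 of the 32623 genes of the count matrices. The question was in which kind of cochlear cell each gene was read, and at which postnatal age.

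The study sequenced dissociated cells of the rat cochlear basal membrane with 10x droplets that count molecules (UMIs) from the 3′ end of the transcript. The rats were untreated Sprague-Dawley animals, female and/or male, of an age of 1, 7 or 14 postnatal days (called P1, P7 and P14 here), and spiral ganglion, spiral ligament and stria vascularis were meant to be removed by dissection. Each age is 1 library, so age and library cannot be told apart, no test was possible, and the 95% intervals below (exact Poisson for counts, exact Clopper-Pearson for shares of cells) cover counting error only. The labels call every sample greater epithelial ridge cells, whereas cells with epithelial markers were a small part of each library.

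After leaving out barcodes with 500 or fewer or 5000 or more genes, or with 25% or more mitochondrial UMIs, 12779, 12581 and 5281 cells remained at P1, P7 and P14, which is 30641 of 34927 barcodes. The P14 library was shallower, with a median of 1614 UMIs a cell against 6565 at P1 and 6878 at P7, and 11641065 UMIs in all against 98005495 and 93080129. Of the kept barcodes, 16 to 53 were shared between any pair of libraries. Levels are CPM, UMIs of a gene per 1000000 UMIs, computed from the UMIs summed over the cells of a group in a library. The counts are from the transcripts' 3′ ends and are not per length, so levels are compared between groups for a gene and not between genes.

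The cells fell into 27 clusters, made without the tight junction genes. Marker lists named 10 of these as 8 cell classes with 8436 cells, and the other 17 groups, with 22205 cells, are called by their leading gene. The endothelial-like class held 165, 180 and 982 cells at P1, P7 and P14, and its 7 markers (among them Cdh5, Kdr and Tek) summed to 2468, 3134 and 4313 CPM. In the other groups these markers reached at most 174 CPM at P1 and 191 CPM at P7, and at P14 2795 CPM in an unnamed cluster of 103 cells led by Slco1a4. The cochlear epithelium-like class held 299, 214 and 78 cells, which is 2.34%, 1.70% and 1.48% of the kept cells, and its 11 markers summed to 8534, 26128 and 8986 CPM, with 1 of the 11 at 0 at P14. Of its 78 P14 cells, 27 formed a subcluster led by Otos and Coch. In these 27 cells the epithelial markers summed to only 93.8 CPM and the glia markers to 46231 CPM. The Schwann cell and glia-like class held 305, 2593 and 319 cells from 3 clusters. Nearly all its P1 and P7 cells came from a cluster led by Sostdc1, 122 of its P7 cells from one with S100a6 among its leading genes, and 311 of its P14 cells from one led by Mt3.

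Cldn5 was highest in endothelial-like cells, Cldn9 in epithelium-like cells and Cldn19 in glia-like cells, while Cldn11 was highest in a cluster led by Aldh1a2 at P1 and P7 and in 3 other unnamed clusters and a few glia-like cells at P14. Ocln and F11r were shared by endothelial-like and epithelium-like cells. Tjp1 was read in most groups. Its highest values were in endothelial-like cells, at P7 also in a cluster led by Cav1, and at P14 also in clusters led by Slco1a4 and Clec3b. Cldn12 was low in every group, and Tjp3 was close to the limit of detection. The level of a group was taken as the mean over the libraries with 20 or more of its cells. By that measure 1 of the 8 members that reached 1 CPM over all kept cells was at least 2-fold higher in its highest group than in the next of all 25 groups, and this was Cldn9. Of all 12822 genes at or above 1 CPM, 13.4% passed. Without the P7 library 2 members passed (Cldn19 was added, 2.998-fold over the Pcsk1 cluster), and without the P14 library 3 (Cldn5 and Cldn11 were added). No share over all genes was computed with a library left out. When only the 8 named classes were set against each other, 5 of the 8 passed (Cldn5, Cldn9, Cldn11, Cldn19 and Tjp1), against 24.3% of all genes. Tjp3, at 0.987 CPM over all kept cells, was the member under 1 CPM.

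**Figure D1:**
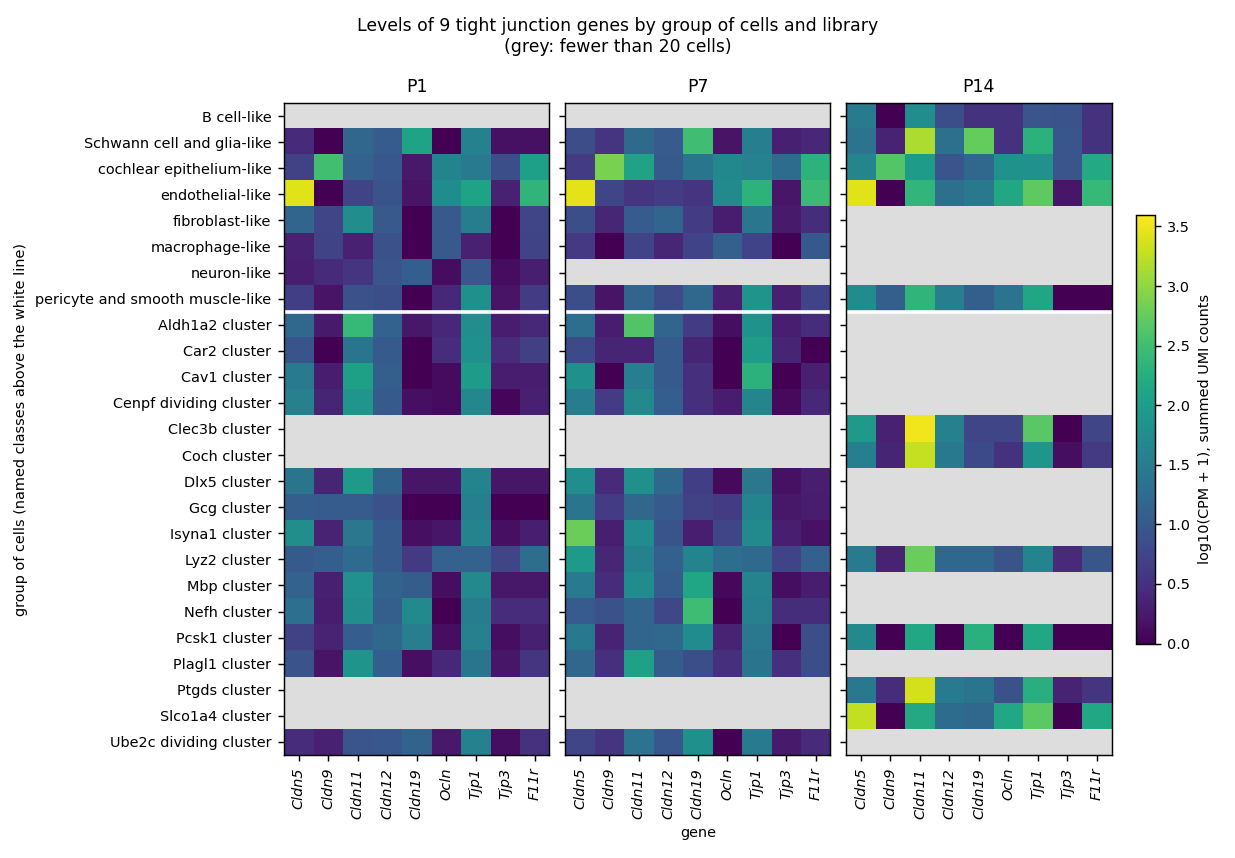
Heat maps of the level of each of the 9 genes, as log10 of CPM + 1, in 25 cell groups (vertical axis) of the P1, P7 and P14 libraries; grey cells mark groups with fewer than 20 cells and the white line parts the 8 named classes from the unnamed groups. Cldn5 stands out in the endothelial-like class of all 3 libraries and Cldn9 in the epithelium-like class, whereas Cldn11 changes groups between P7 and P14.

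**Figure D2:**
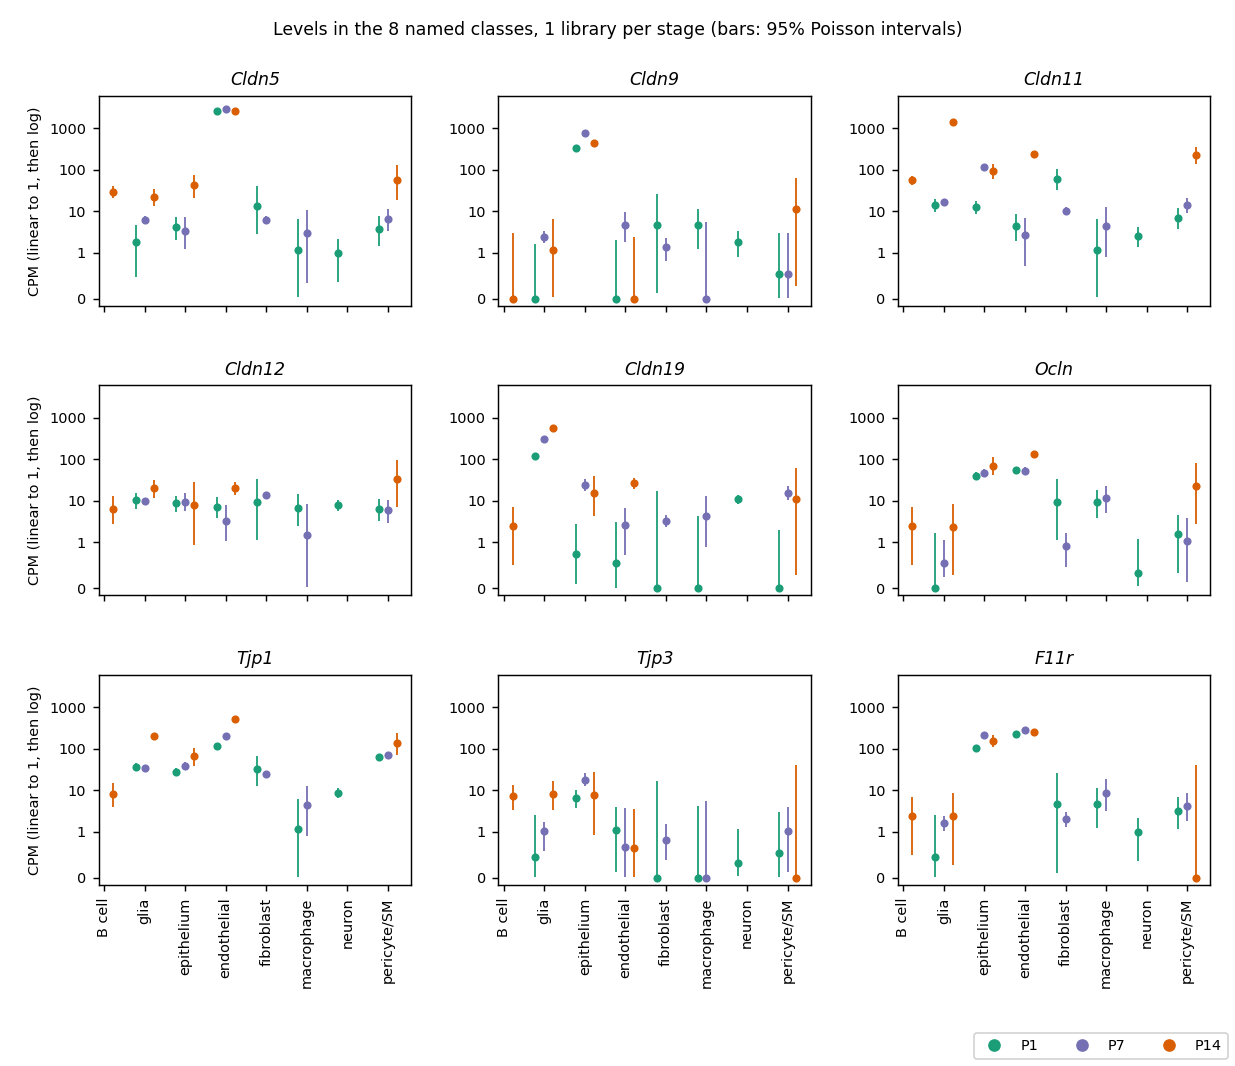
Level of each gene in CPM (axis linear up to 1, then logarithmic) in the 8 named classes, with 1 point per library and exact Poisson 95% intervals of the summed counts. Cldn5 lies between 2613 and 2861 CPM in endothelial-like cells and at most at 56.2 CPM in the other named classes.

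Cldn5 (ENSRNOG00000045811), the main claudin of tight capillaries, was highest in endothelial-like cells at every age. Its level in endothelial-like cells was 2617 CPM (95% interval 2543 to 2693) at P1, 2861 CPM (2777 to 2948) at P7 and 2613 CPM (2533 to 2695) at P14, from 4722, 4329 and 4032 UMIs. The 3 values lay within 1.10-fold of each other. The Slco1a4 cluster of P14, which held the same endothelial markers, had 1869 CPM (1726 to 2021). Among the other named classes the highest level was 56.2 CPM, from 5 UMIs in pericyte and smooth muscle-like cells of P14, and the lowest 0.991 CPM in neuron-like cells of P1. A Cldn5 UMI was found in 93.9%, 95.6% and 83.1% of endothelial-like cells, and in 0.935% and 2.22% of macrophage-like cells of P1 and P7, which should lack it (median depths 9076, 6684 and 1154 UMIs against 7601 and 6490). With every cell thinned to 1000 UMIs, which left out 359 of the 982 endothelial-like cells of P14, the endothelial shares were 80.4%, 84.5% and 75.8%. No macrophage-like cell kept a Cldn5 UMI (0 of 107 and 0 of 90, which allows up to 2.80% and 3.33% by a limit of 3 counts).

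Cldn5 was also read in an unnamed group with almost no endothelial markers. In the cluster led by Isyna1, Col9a3 and Crym its level was 58.7 CPM (55.4 to 62.1) in 3128 cells of P1 and 620.5 CPM (586 to 657) in 264 cells of P7, where 57.6% of the cells had a Cldn5 UMI. The 7 endothelial markers summed to 12.1 and 14.5 CPM there. Thinned to 1000 UMIs, 4.58% (3.87 to 5.37) of these cells had a Cldn5 UMI at P1 and 35.2% (29.5 to 41.4) at P7. The 152 cells of P7 with a Cldn5 UMI reached 1057 CPM and up to 35 UMIs in a cell, their endothelial markers stood at 14.1 CPM with 2 of 7 at 0, and Scrublet marked none of them as a doublet. The Isyna1 cells therefore held 17.1% of the Cldn5 UMIs of P1, as 24.5% of its cells, and 15.1% of those of P7, as 2.10% of its cells. Endothelial-like cells held 67.5%, 54.4% and 80.1% of the Cldn5 UMIs of the 3 libraries. The remaining large share lay at P7 in the cluster led by Dlx5, at 57.9 CPM in 3038 cells and 15.7% of the UMIs, with 31.4 CPM of endothelial markers.

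**Figure D3:**
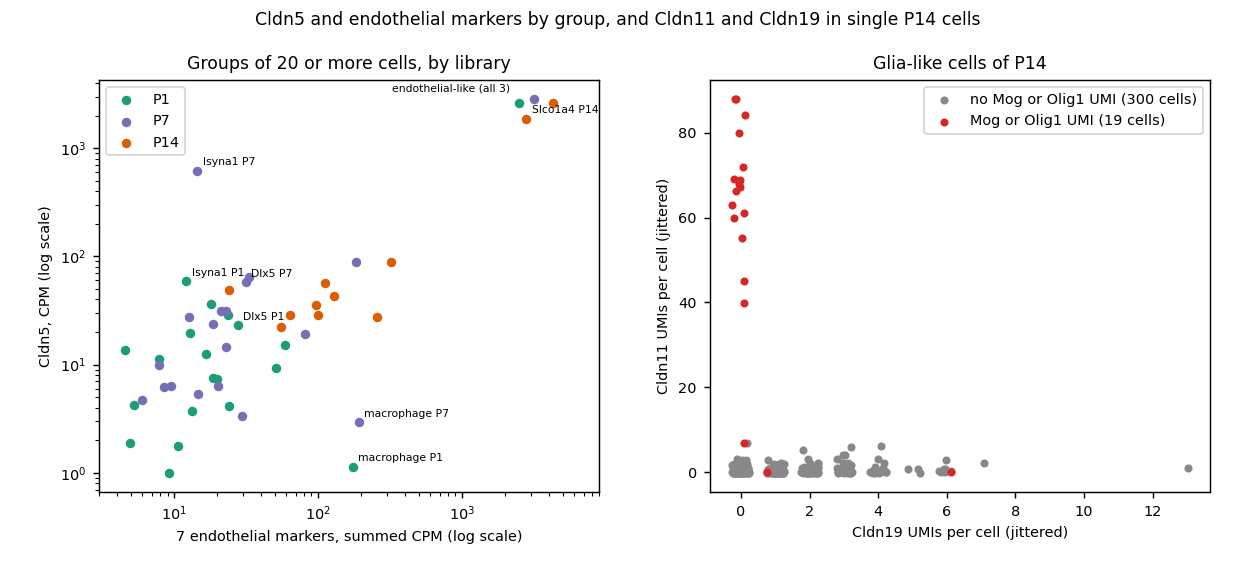
Left, Cldn5 level against the summed level of 7 endothelial markers (CPM, both axes logarithmic), 1 point per group and library of 20 or more cells; right, Cldn11 against Cldn19 UMIs per cell in the 319 glia-like cells of P14, jittered, in red where the cell had a Mog or Olig1 UMI. The Isyna1 cluster of P7 lies at 620.5 CPM of Cldn5 with 14.5 CPM of endothelial markers, and Cldn11 above 7 UMIs is seen in red cells, none of which lies high on both axes.

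Cldn9 (ENSRNOG00000003654), a claudin of the organ of Corti whose loss is known to deafen mice, was read in the epithelium. Its level in epithelium-like cells was 325 CPM (304 to 348) at P1, 758 CPM (718 to 799) at P7 and 431 CPM (354 to 519) at P14. The P7 value was higher than that of P1 by 1.22 on the log2 scale (counting interval 1.09 to 1.34), and P14 was lower than P7 by less than 2-fold (log2 -0.81). Epithelium-like cells were at most 2.34% of a library and held 88.7%, 87.7% and 90.2% of its Cldn9 UMIs. The highest value in another group of 20 or more cells was 11.2 CPM, from 1 UMI in pericyte and smooth muscle-like cells of P14. In the cluster led by Lyz2 at P1, 10.9 CPM came from 7 UMIs in 1 cell. The next level after the epithelium was 6.78 CPM, in the cluster led by Gcg and Cnmd, which is 74.5-fold lower.

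With each cell thinned to 1000 UMIs, a Cldn9 UMI was found in 24.5% of epithelium-like cells at P1, 47.3% (40.03 to 54.7) at P7 and 24.3% at P14. Without thinning the shares were 73.6%, 79.4% and 41.0%, at median depths of 7817, 6621 and 2420 UMIs. In endothelial-like cells, taken as background, the thinned shares were 0 of 163, 1 of 174 and 0 of 623 cells. A hair cell, the sensory cell of this epithelium, was called from UMIs of 3 or more of 11 hair cell markers, which gave 21 cells within the class, all of P1. Each of these 21 cells had a Cldn9 UMI, and their level was 206 CPM (161 to 259) against 344 CPM (320.1 to 368) in the other 278 epithelium-like cells of P1. F11r stood at 25.7 CPM (9 UMIs) in them against 117 CPM in the others, and Ocln at 5.72 CPM (2 UMIs) against 45.8 CPM. Tjp1 was 48.6 CPM (28.3 to 77.8) against 25.1 CPM (19.0 to 32.4). The hair cells were deeper, with a median of 15033 UMIs against 7500. Settings that made the hair cells a class of their own (tight junction genes allowed among the variable genes, resolution 1.2 or 20 principal components) put that class next in order, 2.51-fold to 2.77-fold below the epithelium in place of 74.5-fold.

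The epithelium-like cells were divided into 12 subclusters, again without the tight junction genes, and Cldn9 differed among them. Summed over the libraries, it was 1118 CPM (1026 to 1217) in 46 cells of P7 and P14 led by Ucma, Rgcc and Otoa, and 749 CPM (678 to 826) in 49 cells of P1 and P7 led by Grifin and Igfbp3. The Grifin-led cells differed by age, with 358 CPM (289 to 439) in 28 cells of P1 and 1105 CPM (985 to 1234) in 21 cells of P7, where the Ucma-led cells had 1143 CPM (1046 to 1247). Cldn9 was 575 CPM in 74 cells led by Igf1 and 462 CPM in 98 led by Apoa4 and Tectb, which encodes a protein of the tectorial membrane. Lower values were found in 77 cells led by Moxd1 (255 CPM), in 57 led by Lyve1 and Upk3a (207 CPM), and in the hair cell subcluster led by Acbd7, Pcp4 and Lhfpl5 (204 CPM, 22 cells). Cldn9 was thus detected in every subcluster of the epithelium except 10 cells led by the pigment gene Pmel, with 0 UMIs of Cldn9, Ocln and F11r. In 27 P14 cells led by Otos and Coch, 5 Cldn9 UMIs came from 1 cell. Without these last subclusters the Cldn9 levels were 331, 765 and 519 CPM. The Grifin-led cells were the only subcluster with 20 or more cells in 2 libraries, and for the others subcluster and age cannot be told apart.

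**Figure D4:**
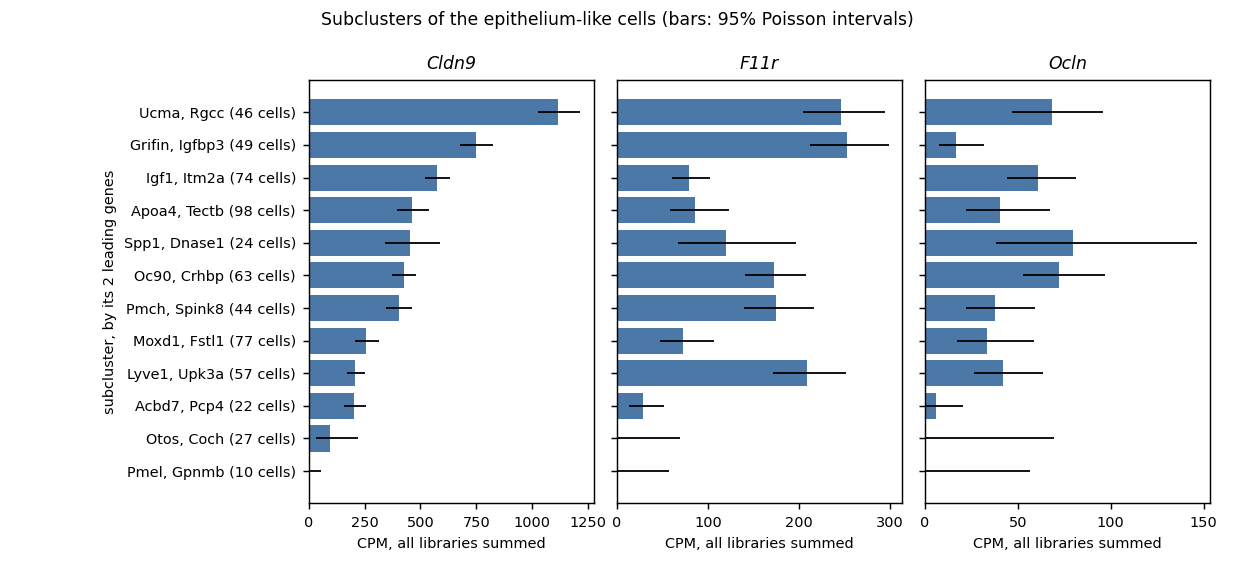
Levels of Cldn9, F11r and Ocln in CPM (bars from 0, exact Poisson 95% intervals) in the 12 subclusters of the epithelium-like cells, summed over the libraries and named by leading genes. Cldn9 ranges from 1118 CPM in the Ucma-led cells to 0 in the Pmel-led cells.

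Cldn11 (ENSRNOG00000010263), known in the ear from the basal cells of the stria vascularis and in the brain from oligodendrocyte myelin, had no fixed owner. At P1 and P7 it was highest in the cluster led by Aldh1a2, Calb2 and Kcnk2, at 255 CPM (245 to 266) in 1057 cells and 421 CPM (407 to 435) in 996 cells. A Cldn11 UMI was found in 60.8% and 60.5% of those cells. Next at P1 came the cluster led by Cav1 with 109 CPM, and next at P7 the epithelium-like class with 119 CPM from 31 of its 214 cells. The endothelial-like class had 4.43 and 2.64 CPM, and the glia-like class 14.2 and 16.4 CPM.

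At P14 the highest levels were in clusters with few or no cells of the other libraries. The libraries were merged without integration, and whether such cells lay in other clusters at P1 and P7 was not tested. The levels were 3361 CPM (3240.3 to 3484) in 312 cells led by Clec3b and 2319 CPM (2246 to 2394) in 873 cells led by Ptgds. In 1715 cells led by Coch, the gene of the matrix protein cochlin, the level was 1941 CPM (1891 to 1993). A Cldn11 UMI was found in 84.9%, 87.97% and 68.5% of these cells. In the B cell-like class of P14, which should lack the gene, the level was 56.3 CPM and 16.0% of cells had a UMI at a median of 3520 UMIs a cell, against medians of 1952, 1681 and 1480 UMIs in those clusters. Fibroblast markers summed to 14389 CPM in the Coch cluster and 10646 CPM in the Ptgds cluster, and to 2272 CPM in the Clec3b cluster. Cochlear mesenchyme markers, a list that holds Coch itself, summed to 21795, 1973 and 6204 CPM. In the Coch cluster the osteoblast list had the largest mean log2 excess, 3.69 against 2.67 for the next list. Osteoblast markers summed to 7667 CPM over all its cells, but none was among its 10 leading genes. With cells assigned by their own markers, Cldn11 was highest in osteoblast cells, 1.85-fold over cochlear mesenchyme cells. The Coch, Ptgds and Clec3b clusters held 37.2%, 24.98% and 19.3% of the Cldn11 UMIs of P14, as 32.5%, 16.5% and 5.91% of its cells. Over all kept cells the level was 66.4, 68.0 and 1307 CPM.

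Of the groups with 20 or more cells at both ages, all except the epithelium-like class had more Cldn11 at P14 than at P7, and this included classes in which it was near 0 before. Endothelial-like cells had 234 CPM (210.4 to 259), from 361 UMIs in 150 of 982 cells, against 2.64 CPM at P7, and pericyte and smooth muscle-like cells 225 CPM (137 to 347) against 13.8 CPM. Coch stood at 1187 CPM and Ptgds at 4035 CPM in the same endothelial-like cells, and their part in the Cldn11 value was not tested.

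The Cldn11 of the glia-like cells of P14 came from few cells. Their level was 1449 CPM, from 1231 UMIs, but 1082 of these (87.9%) came from 19 of the 319 cells, those with a UMI of Mog or Olig1, genes of oligodendrocytes. Cldn11 in the 19 cells was 10831 CPM (10195 to 11496) with up to 88 UMIs in a cell, and in the other 300 cells 199 CPM (168 to 233) with at most 7 UMIs in a cell. Prx, the gene of periaxin in Schwann cell myelin, was 30.0 CPM in the 19 cells and 1394 CPM in the others. Cldn19 had the same order, with 7 of its 477 UMIs in the 19 cells (70.1 CPM, 28.2 to 144) and 470 in the others (627 CPM, 572 to 686). The split was made after the values had been seen. Without the Mog or Olig1 cells the highest named class for Cldn11 was no longer the glia-like but the pericyte and smooth muscle-like class, 1.04-fold over the endothelial-like class, and 4 of 8 members passed 2-fold among the named classes in place of 5. No share over all genes was computed without these cells.

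Cldn19 (ENSRNOG00000007922) was highest in glia-like cells. Its level in the glia-like class was 120.3 CPM (106 to 136) at P1, 310.2 CPM (301 to 319) at P7 and 562 CPM (512 to 614) at P14. P7 was above P1 by 1.37 on the log2 scale (1.19 to 1.55) and P14 above P7 by 0.86 (0.72 to 0.99). The order of the first pair depended on how the class was drawn: with 20 principal components it held only 38 cells of P1, at 936 CPM, and the difference turned to -1.57. It was -0.54 at resolution 1.2 and 0.76 with a mitochondrial limit of 10%. Within the Sostdc1-led cluster alone, Cldn19 was 76.8 CPM at P1 and 213.6 CPM at P7. In the part with S100a6 among its leading genes at P7 it was 1307 CPM, with a UMI in each of 122 cells. At P14, 311 of the 319 glia-like cells came from the Mt3-led cluster, which held 3 cells of P7. For P14 over P7, cluster and age therefore cannot be told apart.

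The share of glia-like cells with a Cldn19 UMI was 16.4%, 35.7% and 66.8%, and after thinning 6.56%, 14.97% and 46.1%. In endothelial-like cells the thinned shares were 0 of 163, 1 of 174 and 12 of 623 cells. Outside the class Cldn19 was found in groups that themselves held glial or neuronal markers, and also in the cluster led by Lyz2. In that cluster 4 of 83 thinned cells of P7 had a Cldn19 UMI (4.82%), against 4.74% in the cluster led by Pcsk1. The cluster led by Nefh had 51.0 and 302.4 CPM at P1 and P7, the cluster led by Pcsk1 33.7, 55.4 and 194 CPM (8 UMIs at P14), and the unnamed cluster with Mbp among its leading genes, of which Scrublet marked 86.3% as doublets, 10.4 and 136 CPM. Neuron-like cells of P1 had 10.7 CPM, and the other named classes at most 26.6 CPM. The glia-like class held 40.03%, 71.4% and 74.2% of the Cldn19 UMIs of the 3 libraries.

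Cldn12 (ENSRNOG00000039862), an unusual claudin without the usual scaffold-binding tail, marked no class. At P1 its level in the groups lay between 6.35 and 15.04 CPM, and at P7 between 1.46 and 15.1 CPM. At P14 it was 35.4 CPM (24.1 to 50.3) in the Clec3b cluster, 29.3 CPM (21.6 to 38.8) in the Ptgds cluster and 27.4 CPM (21.7 to 34.1) in the Coch cluster, with intervals that overlapped. Endothelial-like cells had 7.21, 3.30 and 20.1 CPM, from 13, 5 and 31 UMIs, and epithelium-like cells 8.63, 9.58 and 7.76 CPM. Over all kept cells the level was 10.4 CPM (9.79 to 11.1), 11.5 CPM (10.9 to 12.3) and 21.9 CPM (19.3 to 24.8).

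Ocln (ENSRNOG00000018297), which encodes occludin, was read in both endothelial-like and epithelium-like cells. Endothelial-like cells had 54.9 CPM (44.6 to 66.8) at P1, 51.6 CPM (40.8 to 64.3) at P7 and 137 CPM (119 to 156) at P14. Epithelium-like cells had 40.5 CPM (33.3 to 48.9), 47.3 CPM (37.7 to 58.6) and 69.9 CPM (41.4 to 110.4). The intervals of the 2 classes overlapped at P1 and at P7, and at P14 the endothelial value was higher beyond counting error. That P14 difference depended on the Otos-led subcluster, 27 epithelium-like cells with 0 Ocln UMIs. Without these cells the epithelial value of P14 was 88.1 CPM (52.2 to 139), and its interval overlapped the endothelial one. The Slco1a4 cluster of P14 had 140 CPM (103 to 186). Macrophage-like cells had 9.08 and 11.7 CPM from 8 UMIs each, and glia-like cells 0, 0.559 and 2.35 CPM (0 UMIs at P1, which allows up to 1.33 CPM by a limit of 3 counts). Endothelial-like cells were 1.29%, 1.43% and 18.6% of the cells and held 33.1%, 30.1% and 66.4% of the Ocln UMIs, and epithelium-like cells 36.1%, 32.4% and 5.66%.

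F11r (ENSRNOG00000004414), which encodes JAM-A, was found in the same cells. It was 229 CPM (207 to 252) in endothelial-like cells at P1, 285 CPM (259 to 313) at P7 and 253 CPM (229 to 280) at P14, with no difference of 2-fold. Epithelium-like cells had 105 CPM (93.2 to 118), 212 CPM (191 to 234) and 155 CPM (111 to 211), and P7 was above P1 by 1.01 on the log2 scale (0.78 to 1.24). The endothelial value was the higher at each age, with separate intervals. At P14 the separation depended on the Otos-led subcluster, 27 epithelium-like cells with 0 F11r UMIs. Without these cells the epithelial value of P14 was 196 CPM (139.9 to 267), and its interval overlapped the endothelial one. A UMI was found in 75.8%, 72.2% and 29.1% of endothelial-like cells, and after thinning to 1000 UMIs in 20.2%, 25.3% and 21.99%, so the lower share at P14 went with its depth. The clusters led by Slco1a4 (140 CPM) and by Lyz2 (18.6, 11.6 and 8.33 CPM) came next, and glia-like cells had 0.444, 1.61 and 2.35 CPM.

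Over the 27 clusters, log2(CPM + 10) of Ocln and F11r had a Pearson r of 0.967, the highest among the members. The clusters share their libraries and depths, so this is a description. Promoter windows of both genes are shown since their levels went together, with that of Cldn5, the endothelial claudin, beside them. They run from 250 bases before to 50 after the start of transcription in RefSeq (build GRCr8, which is not the build of the counts), 5′ to 3′ on the gene's strand, and 8 of the 9 members had one, Cldn9 not. Capitals mark CCAAT boxes (CCAAT, 37.5% of 33469 promoters hold one) and E-boxes (CACCTG, 18.8%), on both strands. AGGAAG, an ETS-type motif (34.5%), was searched too and was not found in these 3.
Ocln, chr2:33441149-33441448, minus strand: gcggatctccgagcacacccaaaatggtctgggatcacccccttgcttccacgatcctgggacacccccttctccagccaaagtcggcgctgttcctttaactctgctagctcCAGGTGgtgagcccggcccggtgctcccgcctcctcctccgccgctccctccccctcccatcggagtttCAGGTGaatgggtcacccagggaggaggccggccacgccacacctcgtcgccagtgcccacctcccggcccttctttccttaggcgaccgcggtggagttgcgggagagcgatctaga
F11r, chr13:86405979-86406278, plus strand: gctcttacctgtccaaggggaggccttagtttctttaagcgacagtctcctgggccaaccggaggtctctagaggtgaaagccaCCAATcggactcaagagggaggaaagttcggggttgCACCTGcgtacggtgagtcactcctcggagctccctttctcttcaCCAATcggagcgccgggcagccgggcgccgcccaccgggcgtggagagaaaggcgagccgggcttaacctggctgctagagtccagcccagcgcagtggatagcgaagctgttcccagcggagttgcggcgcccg
Cldn5, chr11:95718549-95718848, minus strand: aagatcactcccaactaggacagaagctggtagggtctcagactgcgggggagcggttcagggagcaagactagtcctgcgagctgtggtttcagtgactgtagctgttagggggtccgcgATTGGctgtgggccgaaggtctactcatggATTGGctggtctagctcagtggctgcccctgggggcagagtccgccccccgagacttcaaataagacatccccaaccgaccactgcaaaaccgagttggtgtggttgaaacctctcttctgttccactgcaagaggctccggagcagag
The Ocln window held 2 E-boxes and no CCAAT, the F11r window 2 CCAAT boxes and 1 E-box, and the Cldn5 window 2 CCAAT boxes and no E-box. These letters are a description of the windows, and the 3′ counts do not show which start was used.

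Tjp1 (ENSRNOG00000011077), the scaffold ZO-1, was read in most groups. Endothelial-like cells had 120 CPM (104 to 137) at P1, 208 CPM (186 to 233) at P7 and 508 CPM (473 to 545) at P14. P14 was above P7 by 1.29 on the log2 scale (1.10 to 1.48) and above P1 by 2.09 (1.87 to 2.31), where the median of all genes in these cells was 0.40 and 0.55. At P14 the Slco1a4 cluster had 485 CPM (414 to 566) and the Clec3b cluster 473 CPM (428 to 521), which were within counting error of the endothelial value. The cluster led by Cav1 had 92.3 CPM at P1 and 206 CPM at P7, and the latter did not differ from the endothelial value beyond counting error. Glia-like cells had 36.9, 33.5 and 205 CPM, pericyte and smooth muscle-like cells 63.5, 72.4 and 135 CPM, and epithelium-like cells 28.2, 38.9 and 66.0 CPM. The lowest levels were in blood cells, with 1.14 and 4.38 CPM in macrophage-like and 8.04 CPM in B cell-like cells.

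Tjp3 (ENSRNOG00000020501), the scaffold ZO-3 of epithelia, had 74, 101 and 25 UMIs in all. Epithelium-like cells had 6.38 CPM (3.72 to 10.2) from 17 UMIs at P1, 18.03 CPM (12.3 to 25.4) from 32 at P7 and 7.76 CPM (0.940 to 28.04) from 2 at P14. At P1 and P7 no other group with more than 3 UMIs reached the epithelial level. At P14 it was read at 7.24 CPM in B cell-like cells (9 UMIs) and 8.24 CPM in glia-like cells (7 UMIs), and no difference from the epithelium was detectable at this depth.

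**Figure D5:**
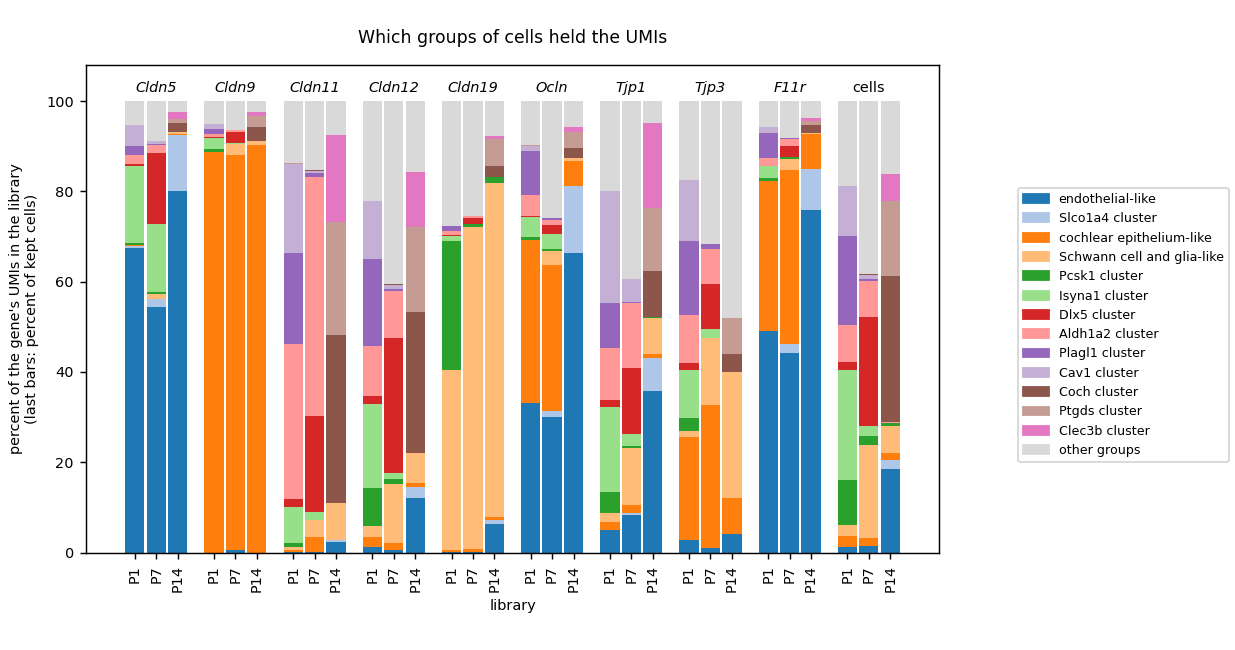
Stacked bars of the percent of a gene's UMIs that each group held in the P1, P7 and P14 libraries, beside the percent of cells. Endothelial-like cells held 80.1% of the Cldn5 and 75.8% of the F11r UMIs of P14 as 18.6% of its cells, and epithelium-like cells 90.2% of the Cldn9 UMIs as 1.48% of its cells.

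Between the ages, whole-library levels could move with the mix of cells and with the level per cell. The share of a cell type and its level per cell cannot be told apart in them. Of the 8 members at or above 1 CPM, 6 differed by 2-fold or more between P1 and P7 or between P7 and P14, against 43.6% of all genes. Cldn19 was higher at P7 than at P1, at 66.8 against 6.91 CPM (log2 3.27), among 10.6% of genes, and glia-like cells were 20.6% of the P7 cells against 2.39% of those of P1. Cldn5 (log2 2.34), Cldn11 (4.26), Ocln (3.30), Tjp1 (2.21) and F11r (2.08) were higher at P14 than at P7, among 22.1% of genes. Endothelial-like cells were 18.6% of the P14 cells against 1.43% of those of P7. Cldn11 at P14 was 234 CPM in endothelial-like cells, against 1941, 2319 and 3361 CPM in the Coch, Ptgds and Clec3b clusters. Cldn12 (0.92), Cldn9 (-0.64) and Cldn19 (-0.28) did not reach 2-fold between P7 and P14. No member was lower by 2-fold, against 10.3% of genes lower at P7 than at P1 and 9.63% lower at P14 than at P7. The median log2 difference of P14 over P7 was 0.21 for all genes and 2.08 for the 9 members. With median-of-ratios size factors the P14 over P7 differences were lower by 0.41 on the log2 scale, and the higher among the genes past 2-fold went from 69.6% to 40.6%. Cldn5 (1.93), Cldn11 (3.85), Ocln (2.88), Tjp1 (1.80) and F11r (1.67) were still past 2-fold.

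A comparison of ages within the highest group was possible for 4 members, those whose highest group had 20 or more cells in at least 2 libraries, and 2 of them differed by 2-fold or more. The 2 were Cldn9 in epithelium-like cells and Cldn19 in glia-like cells, each higher at P7 than at P1. Of all genes, 14.2% and 9.94% were higher at P7 by 2-fold in these classes. With named classes only, 6 of 8 members differed. A matching share over all genes was not computed for these counts, so they are not read as a result about the members. Cldn5 and F11r in endothelial-like cells did not differ by 2-fold, while 10.4% of genes were higher at P7 than at P1 and 25.4% higher at P14 than at P7 in that class. Ocln (log2 1.41) and Tjp1 (1.29), whose highest group was the Slco1a4 cluster of P14, were past 2-fold at P14 over P7 in endothelial-like cells.

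The other tight junction genes gave the background for these 9. Of 41 others on a list of claudins, adhesion molecules and scaffolds found in the matrices, 27 reached 1 CPM. Of these 27, 11 were at least 2-fold higher in their highest group than in the next, against 13.4% of all genes. By named class, 12 of the 27 were highest in epithelium-like cells (11 by 2-fold), 7 in endothelial-like cells (5 by 2-fold), 3 in pericyte and smooth muscle-like, 2 in glia-like, 2 in fibroblast-like (1 by 2-fold) and 1 in neuron-like cells. Of all genes, the share highest by 2-fold was 2.66% in the epithelium-like, 2.53% in the endothelial-like, 2.04% in the pericyte and smooth muscle-like, 1.78% in the glia-like, 1.58% in the fibroblast-like and 5.12% in the neuron-like class. Cldn8 stood out in the epithelium with Cldn9, at 285 CPM against 3.16 CPM in macrophage-like cells, the next group. Cgnl1, the gene of paracingulin, was highest in endothelial-like cells at 70.8 CPM with 44.6 CPM in the Slco1a4 cluster, and Esam, an endothelial adhesion molecule, was 548 CPM there, 512 CPM in the Slco1a4 cluster, 246 CPM in pericyte and smooth muscle-like and 88.3 CPM in macrophage-like cells. Mpp5 was highest in glia-like cells at 83.8 CPM, with 65.5 CPM in the Slco1a4 cluster, 45.3 CPM in epithelium-like and 18.2 CPM in macrophage-like cells. Jam3, a junctional adhesion molecule, was 199 CPM in pericyte and smooth muscle-like, 156 CPM in glia-like and 150.4 CPM in fibroblast-like cells, and Mpdz 47.2 CPM in the former. Magi1 (28.7 CPM) was highest in fibroblast-like cells, and Cldn10 (11.2 CPM) and Pard3 (22.8 CPM) were the genes named for neuron-like cells, of which Pard3 was higher in other groups.

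The genes whose levels were most like those of a member over the 27 clusters were found among genes of 10 CPM or more. For Cldn5 they were Abcg2 (r 0.944), a barrier transporter, RGD1310587 (0.937) and Kdr (0.904), the VEGF receptor. For Cldn9 they were the epithelial adhesion gene Epcam (0.991), the otoconial gene Oc90 (0.957) and the tectorial membrane gene Tecta (0.9497). For Cldn19 they included Fa2h (0.970) and Ugt8 (0.957), which encode enzymes of myelin lipid synthesis. For F11r they were Cmtm8 (0.951), Lsr (0.935), an angulin of tricellular junctions, and Adipor2 (0.905), and for Ocln after F11r they were Cmtm8 (0.928) and Adipor2 (0.923). Cldn11 was followed by Scd (0.880), AABR07008439 (0.878) and Ldah (0.877), Cldn12 by Prpf18 (0.907), Dmpk (0.906) and Tob1 (0.886), and Tjp1 by Smurf2 (0.900), Cavin1 (0.889) and Pik3c2a (0.867). Tjp3 reached only 0.700 with Ppif, 0.681 with Efhd1 and 0.678 with Mien1. Among the members themselves, Cldn11 and Cldn12 had an r of 0.857 and Cldn5 and Ocln 0.719, whereas Cldn5 and Cldn9 had -0.155.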

How the data were processed

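The deposited files were raw UMI counts per gene and barcode of 3 libraries (10x 3′ V3 chemistry), which the authors made with bcl2fastq and Cell Ranger (3.1.0 in the file header) against rn6; the annotation and the cell calling were not given in the sources used here. No cell annotation was used. Seurat 3.1.1 is named in the submitters' processing notes.

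Barcodes with more than 500 and fewer than 5000 genes and under 25% of UMIs on Mt- genes were kept, merged without integration, log-normalised and clustered (R 4.3.3, Seurat 5.3.0, 2000 variable genes, 10 principal components, resolution 0.8). The tight junction list (51 genes, 50 in the matrices) was left out of the variable genes, of which 18 had been among them. A cluster was named when a marker list had a mean log2 excess of at least 1 over all cells and at least 1 over the next list, 3 or more markers detected, 1 or more among its 10 leading genes, and under 50% Scrublet-marked cells; clusters of dividing cells kept their leading genes as names. This naming rule was set after values had been seen. Of the 18 lists, endothelial, melanocyte, Schwann cell and B cell markers lacked 1 gene each in the matrices and erythroid markers 2. The members and lists were chosen with earlier results of these data known.

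Counts were summed per group and library with at least 20 cells and given as CPM with exact 95% intervals (Python 3.11.15, numpy 2.4.6, scipy 1.17.1, pandas 2.3.3). In folds, the lower side was set to the level of 3 UMIs where a library had fewer, and no fold was given where both sides were at or under it. A call was a fold of 2 among genes at or above 1 CPM over all kept cells. Shares of cells were taken after thinning each cell to 1000 UMIs, which left out 37, 193 and 735 cells at P1, P7 and P14. All 9 members were named; other tight junction genes were named as the 2 per class with the largest fold over the next group, among those at or above 10 CPM in the class, and similar genes as the 3 with the highest Pearson r. Some genes that these rules name are not reported here. Esam and Mpp5 in other classes were given beside the class that the rule named them for. Doublets were kept, and Scrublet (scanpy 1.11.5) marked 4.87%, 6.16% and 0.0379% of kept cells, so it did not work at P14. Alternatives were another mitochondrial limit, fold, resolution, number of components, scaling and low-count filter, thinning, marked doublets removed, single-cell means, cells assigned by their own markers, and leaving out each library; named classes only and the splits of glia-like cells were added after seeing the data. Every column was mapped to a sample. The scripts were tested on simulated counts. Groups of cells from 1 library cannot be told apart from that library.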

Additional observations from a re-analysis of the deposited data

Results flagged for a closer look

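Cldn11 differed between P7 and P1 in opposite directions in 2 named classes, with log2 3.26 in epithelium-like cells (33 UMIs at P1 and 211 at P7) and log2 -2.53 in fibroblast-like cells (13 UMIs in 33 cells at P1 and 125 in 1797 cells at P7). Of the 211 UMIs, 109 came from 36 cells led by Ucma, a subcluster with 0 cells of P1. Another 73 came from 31 cells of a subcluster led by Pmch, with Mbp among its leading genes and 11 cells of P1. The difference between the epithelium-like and fibroblast-like classes was not tested, since there is 1 library per age. Ocln differed likewise, with log2 2.87 in the Isyna1 cluster (0.638 CPM from 13 UMIs and 4.65 CPM from 9 UMIs) and log2 -3.33 in fibroblast-like cells (9.15 CPM from 2 UMIs and 0.909 CPM from 11 UMIs), a value that rests on 2 UMIs at P1 and has a counting interval from -5.53 to -0.12, and this difference was not tested either.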

How the results depend on the processing

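No paired analysis was possible because each age is 1 library and no result comes from a test. Cldn5, Cldn9 and Cldn19 were highest in endothelial-like, epithelium-like and glia-like cells in all 17 alternatives for the highest group. Named classes only was among the 17 and could not change it, since these genes were already highest in a named class. The count of members at least 2-fold over the next group, 1 as reported, was 2 with a mitochondrial limit of 10%, with the mean CPM of single cells, at resolution 0.4 or 1.2 and with 20 principal components, where Cldn19 was added. It was 4 with a fold of 1.5, 3 with cells assigned by their own markers, 5 with named classes only and 4 of those without Mog or Olig1 cells. Leaving out a library gave 1 to 3, without P7 Cldn19 was added (2.998-fold over the Pcsk1 cluster), and without P14 Cldn5 (8.07-fold over the Isyna1 cluster) and Cldn11 (3.65-fold, Aldh1a2 cluster) passed. The count between ages within the highest group, 2 as reported, was 1 with a mitochondrial limit of 10% or resolution 1.2, 0 with a fold of 3, 4 of 7 with cells assigned by their own markers, and 6 of 8 with named classes only, with or without Mog or Olig1 cells. Cldn9 was found in 47.3% of thinned and 79.4% of unthinned epithelium-like cells of P7. The log2 difference of Cldn19 between P7 and P1 in glia-like cells turned to -1.57 with 20 principal components, which left 38 P1 cells in the class, and to -0.54 at resolution 1.2. The 6 members that differed between whole libraries became 6 to 8 under alternatives. The 5 members that passed over the next named class stand against 24.3% of all genes. For the other counts under alternatives no share over all genes was computed, so they are not read as a result about the members. Of 392 single values under alternatives, 243 stayed the same, 147 moved and 2 reversed, and the cause was not tested. For differences between ages, the same meant within the counting interval. For most other values, the folds over the next group, it meant the same name of the highest group and nearly the same fold. Classes of cells assigned by their own markers had other names, so their folds always counted as moved. The shallow P14 library limits Tjp3, Cldn12 and every class with few cells there.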
